A study of Mus musculus with 6 samples.

Results

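Pericytes and smooth muscle cells are the mural cells that wrap blood vessels, and 54 of the 6730 cell barcodes with at least 200 detected genes (0.802%) in 6 mouse breast tumour libraries were counted as such. The members were chosen by their own transcript counts. The mural genes Rgs5, Myh11, Des, Acta2, Mylk, Gm13889 and Sparcl1 had to sum to at least 4 unique molecular identifiers (UMIs, each a tagged transcript molecule), with at least 2 of these 7 genes detected. Rgs5, Myh11 and Des together had to reach at least 2 UMIs. The keratin and adhesion genes Krt8, Krt18 and Epcam could hold at most 2 UMIs in sum, and the endothelial genes Plvap, Cdh5 and Pecam1 at most 1. Levels of these genes in the members are therefore given as a description.

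The libraries were made by Drop-seq, which captures single cells in droplets with barcoded beads, from Balb/c mouse tumours of the mammary carcinoma line 4T1. There were 3 libraries of tumours given FVIO-MHT, mild magnetic hyperthermia. In it, FVIO nanorings were injected into the tumour at 0.1 mg per cm3 of tumour volume, and a magnetic field alternating at 365 kHz was applied for 10 min. The other 3 libraries were of tumours given PBS, and all tumours were analysed after 24 hours. All 6 samples share a single treatment text, and exposure of the PBS tumours to the field was not given in the sources used here. The labels name the 4T1 line as the cell type, although the whole dissociated tumour, host cells included, was loaded. Whether the replicates are separate mice was likewise not stated. The p-values then reflect library-to-library spread alone, which may be technical. The age and sex of the mice were not given in the sources used here.

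Pericytes sit on capillaries within the basement membrane they share with endothelial cells, and are held there by endothelial PDGF-B acting on their receptor Pdgfrb and by Notch signals. Smooth muscle cells surround arterioles and larger vessels and carry the contractile proteins, such as the myosin heavy chain Myh11, that narrow a vessel. Both types grade into each other along the vessel wall. In tumours, mural cover is often sparse and loosely attached.

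The 6 libraries held between 678337 and 2207534 UMIs over 5000 listed barcodes each, and between 332 and 2325 barcodes with at least 200 genes. Members had a median of 579.5 UMIs (range 243 to 2479) and 400.5 detected genes, against a median of 521 UMIs over all barcodes with at least 200 genes. FVIO-MHT replicate 3 alone supplied 59.3% of the members, and FVIO-MHT replicate 1, in which 275 of 332 barcodes met a leukocyte rule, supplied 0. Of 29927 distinct barcodes, 65 occurred in more than 1 library, and 0 of the member barcodes did. The group comparisons below therefore rest on 2 FVIO-MHT libraries, 1 of them large, and 3 PBS libraries with 11 members in all.

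Rgs5, a regulator of G protein signalling that marks pericytes (chromosome 1, 169655501 to 169695813, plus strand, GRCm38), had 409 UMIs in 49 of the 54 members. Its lowest, median and highest count per member were 0, 6 and 49. Myh11 (chromosome 16, 14194535 to 14291372, minus strand) had 86 UMIs in 21 members, and its median was 0. A single member of FVIO-MHT replicate 2 held 25 of those Myh11 UMIs and 16 of the 39 UMIs of Des, the muscle intermediate filament desmin, which was seen in 15 members. Acta2, smooth muscle actin, was found in 36 members (157 UMIs), as was Mylk, the kinase that switches on smooth muscle myosin (119 UMIs). Sparcl1, a secreted matrix protein, was found in 46 members (228 UMIs) and Gm13889 in 28 (74 UMIs). Most members were thus carried into the set by Rgs5 and not by Myh11.

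The rule cut through a continuous range. At its lower edge, 2 members had a marker sum of 4, and 4 further barcodes with a sum of 3 met every other condition. Among barcodes otherwise inside, 18 were left out because Rgs5, Myh11 and Des summed to 0 or 1. These 18 held 61 Acta2 UMIs and 1 Rgs5 UMI. The endothelial limit left out 4 barcodes with 31 Rgs5 UMIs between them, and the keratin limit left out 1. Another 20 barcodes with fewer than 200 genes, with a median of 180 UMIs, met the rest of the rule and held 88 Rgs5 UMIs and 2 Myh11 UMIs.

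The rule itself required the mural genes, which 90.7% (Rgs5) and 38.9% (Myh11) of the members carried, so other barcodes are shown to give the background from free RNA. Among 1115 leukocyte-rule barcodes, with a median of 496 UMIs, 0.717% carried an Rgs5 UMI and 0.0897% a Myh11 UMI. These come unevenly from the libraries. In FVIO-MHT replicate 3, which held most Rgs5, 3 of 110 leukocyte-rule barcodes (2.73%) carried an Rgs5 UMI, and in FVIO-MHT replicate 1 it was 0 of 275. In 227 fibroblast-rule barcodes, chosen by Dcn, Lum, Pdgfra and 3 collagen genes, 1.76% carried an Rgs5 UMI (median depth 709 UMIs). In 79 endothelial-rule barcodes it was 7.59% (median depth 806 UMIs). Outside the members, 69 barcodes with at least 200 genes had an Rgs5 UMI and 19 had a Myh11 UMI.

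**Figure D1:**
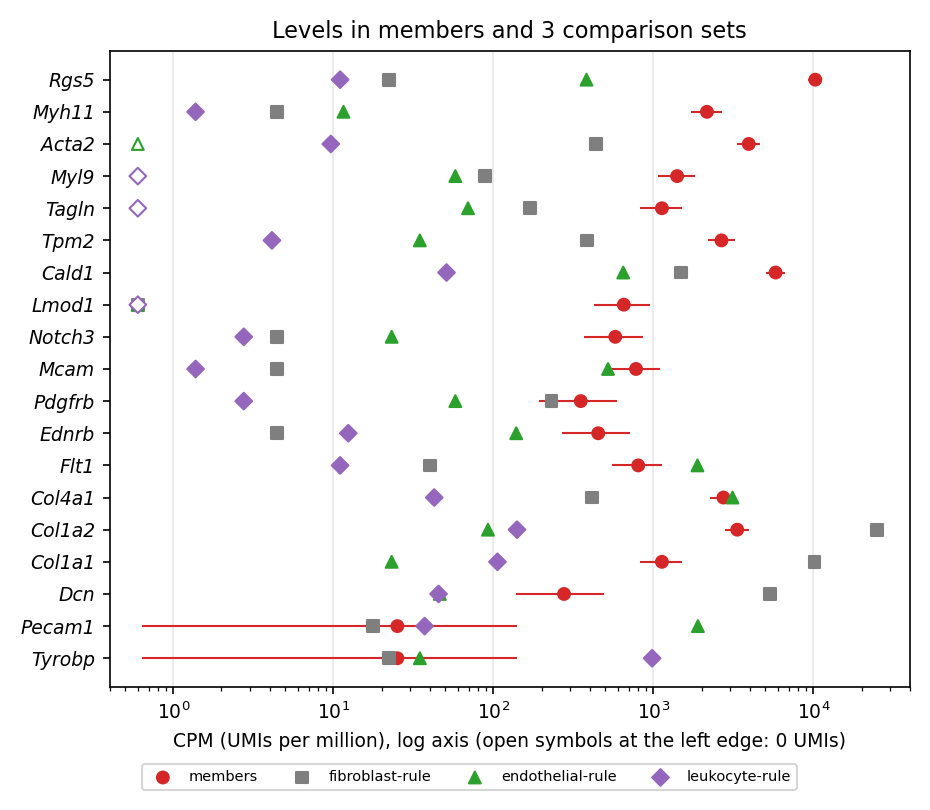
CPM (counts per 1000000 UMIs of the set, log axis) of 19 genes in the 54 members and in barcodes chosen by fibroblast, endothelial and leukocyte rules. Bars are exact 95% Poisson intervals of the members' sums and cover counting error only, and open symbols mark 0 UMIs. Contractile genes stand to the right in the members, Col4a1 lies level with the endothelial-rule barcodes, and Col1a2, Col1a1 and Dcn stand to the right in the fibroblast-rule barcodes.

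Contractile genes that the rule did not use followed it. All 15 genes of a contractile list were detected. Among the members, 53 of 54 held at least 1 of their UMIs, and the list made up 1.81% of member UMIs. The same list took 0.335% of UMIs in fibroblast-rule, 0.220% in endothelial-rule and 0.0331% in leukocyte-rule barcodes. Since members were selected by genes of the same programme, these are descriptions without a test.

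Cald1, the actin-binding caldesmon, was detected in 81.5% of members, at 5804 CPM (counts per 1000000 UMIs of the set, exact 95% Poisson interval 5080 to 6603) against 1484 in fibroblast-rule barcodes. Tpm1, a tropomyosin, stood at 3141 CPM in members and 702 in fibroblast-rule barcodes. Tpm2, another tropomyosin, stood at 2663 against 387. Both tropomyosins and caldesmon were therefore present in fibroblast-rule barcodes too, at lower levels.

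Myl9, a regulatory myosin light chain, separated the sets more sharply. It stood at 1407 CPM in members, 88.9 in fibroblast-rule and 57.9 in endothelial-rule barcodes, and 0 UMIs were seen in leukocyte-rule barcodes. Tagln, the actin-bundling SM22, stood at 1131 CPM in members and 169 in fibroblast-rule barcodes. Lmod1, leiomodin 1, which nucleates actin filaments in smooth muscle, had 26 UMIs in 11 members and 0 in fibroblast-rule barcodes, at least 49.0-fold higher when 3 counts are taken as the floor of the whole fibroblast-rule sum. Across all other barcodes with at least 200 genes, 6 Lmod1 UMIs were seen. Ppp1r14a, which inhibits myosin phosphatase, was 47.1-fold higher in members than in fibroblast-rule barcodes by the same floor, with a lower limit of 35.6. Cnn1, calponin, was scarce, with 9 UMIs in 3 members.

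Pericyte genes outside the rule were detected more thinly. The 17 genes of a pericyte list gave 171 UMIs in 44 members, and Heyl, Foxs1 and P2ry14 were at 0. Notch3, the Notch receptor of mural cells, was found in 19 members at 578 CPM, 130-fold over fibroblast-rule barcodes, where 1 UMI was seen (exact 95% interval of the ratio 21.1 to 5358). Mcam, the adhesion molecule CD146, was found in 19 members at 779 CPM, against 4.44 in fibroblast-rule and 521 in endothelial-rule barcodes. Mcam thus set the members apart from fibroblast-rule barcodes but lay within counting error of the endothelial-rule level (ratio 1.5, interval 0.915 to 2.42).

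Pdgfrb, the PDGF receptor that pericytes depend on, had 14 UMIs in 9 members. Its level of 352 CPM was within counting error of the 231 in fibroblast-rule barcodes (ratio 1.52, interval 0.779 to 2.79). Abcc9 and Kcnj8, which together form an ATP-sensitive potassium channel of mural cells, were seen in 10 and 5 members. Their levels in fibroblast-rule barcodes were 13.3 CPM for each gene, against 352 for Abcc9 and 226 for Kcnj8 in members. All Kcnj8 UMIs came from FVIO-MHT replicate 3. Higd1b had 11 UMIs in 8 members, all of FVIO-MHT replicate 3, and 0 UMIs in fibroblast-rule, endothelial-rule and leukocyte-rule barcodes. Ebf1, a transcription factor gene, was detected in 16 members at 804 CPM, against 191 in fibroblast-rule barcodes. Cspg4, the NG2 proteoglycan, was found in 6 members.

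Receptors and second-messenger enzymes of the vessel wall were among the 20 genes with the highest ratio to all other barcodes (counting genes outside the rule that were detected in at least 20% of members). Pde3a, a phosphodiesterase that breaks down cyclic AMP, stood at 578 CPM in members and 2.00 in all other barcodes. Ednrb, an endothelin receptor, stood at 452 in members, 139 in endothelial-rule and 4.44 in fibroblast-rule barcodes. S1pr3, a receptor for sphingosine 1-phosphate, stood at 528 in members and 97.7 in fibroblast-rule barcodes. Rgs16, another regulator of G protein signalling, stood at 2111 in members, 249 in fibroblast-rule and 278 in endothelial-rule barcodes. Gucy1a3 and Gucy1b3, the subunits of the nitric oxide receptor, had 8 and 9 UMIs, each in 6 members.

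Il6, the cytokine interleukin 6, was among the same 20 genes, but its 54 UMIs came from 15 members and unevenly from the libraries. FVIO-MHT replicate 2 gave 37, FVIO-MHT replicate 3 gave 5, PBS replicate 3 gave 12, and PBS replicates 1 and 2 gave 0. The chemokine genes Cxcl1 and Cxcl2 were seen in 37 and 29 members. Cxcl1 stood at 2714 CPM in members and 2528 in fibroblast-rule barcodes, a difference within counting error. Cxcl2 stood at 2136 in members and 15423 in leukocyte-rule barcodes. Ccl2, a monocyte attractant, was lower in members than in fibroblast-rule barcodes, at 452 against 2470 CPM.

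Collagen genes differed by type between members and the other stromal sets. Col4a1, a chain of the basement membrane collagen IV, was detected in 41 members at 2739 CPM, against 3124 in endothelial-rule and 413 in fibroblast-rule barcodes. Its ratio to the endothelial-rule level was 0.877 (interval 0.697 to 1.10). The whole list of 13 basement membrane genes did not show that order, with 1.41% of UMIs in members, 1.20% in endothelial-rule and 1.85% in fibroblast-rule barcodes. It includes Sparc, a secreted matrix protein, at 7940 CPM in members and 15822 in fibroblast-rule barcodes. Col1a2, a chain of the interstitial collagen I, was detected in 36 members at 3342 CPM, against 24912 in fibroblast-rule and 92.6 in endothelial-rule barcodes. Col3a1 stood at 3166 against 13769 in fibroblast-rule barcodes. Members therefore lay between the other 2 stromal sets in collagen I and III, which helped to choose the fibroblast-rule barcodes.

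Defining fibroblast genes were nearly absent. Lum, Pi16 and Fbln1 had 0 UMIs in members, Pdgfra had 1, and Dcn had 11 UMIs in 3 members. The 11 Dcn UMIs included 9 from a single member of PBS replicate 1, which also held 16 of the 17 UMIs of Mmp3, a matrix protease, with 0 Rgs5 and 1 Myh11 UMI. That barcode thus carried more fibroblast than mural UMIs. In all, 10 members held at least 10 UMIs of the 6 fibroblast-rule genes. These were 3, 3, 1, 2 and 1 members of FVIO-MHT replicates 2 and 3 and PBS replicates 1, 2 and 3. Their part in the results was not tested beyond leaving them out, as given below.

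Of the endothelial list of 8 genes, Kdr was at 0 UMIs and Emcn and Egfl7 had 1 each, beside Plvap, Cdh5 and Pecam1, which the rule limits and which had 1 each. Flt1, the VEGF receptor 1, did not follow them. It had 32 UMIs in 21 members, 804 CPM against 1886 in endothelial-rule and 40.0 in fibroblast-rule barcodes. By library, Flt1 was found in 5 of 11, 13 of 32, 1 of 2, 1 of 5 and 1 of 4 members, so it was seen in every library with members. Leukocyte-rule barcodes carried a Flt1 UMI in 0.717% of cases, the same share as for Rgs5. Esam, an adhesion molecule, had 9 UMIs in 7 members.

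Markers of other cell types were at 0 or low. The lymphocyte list had 0 UMIs over the members, the erythroid list 1, the skeletal muscle list 1, and the list of Schwann cell and adipocyte genes 2. The macrophage and monocyte list had 19 UMIs in 12 members, with C1qb, C1qc and Cd68 at 0. Most of these were of Apoe (11 UMIs in 7 members) and Lyz2 (5 in 4). The neutrophil list had 15 UMIs in 11 members, with 9 of S100a9 in 7 members and Csf3r and Cxcr2 at 0. The tumour epithelial list had 18 UMIs in 14 members, 8 of them of Krt8, which the rule limits with Krt18 and Epcam. Myoepithelial cells of the mammary gland also make Acta2 and Myh11. All 7 UMIs of the myoepithelial list (4 of Krt17, 2 of Krt14, 1 of Krt5) lay in a single member of PBS replicate 3, which had 4 Myh11, 3 Cnn1 and 0 Rgs5 UMIs. No doublet caller was run, and 2 members carried 3 or more UMIs of the leukocyte rule genes.

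Members split by which of Rgs5 and Myh11 was detected: 33 held Rgs5 without Myh11, 16 held both, and 5 held Myh11 without Rgs5. This split is a range set by detection and not a division into types. The members with Rgs5 alone were also shallower, with a median of 476 UMIs against 784.5 in those with both and 923 in those with Myh11 alone. Some deep members also lacked Myh11, such as a member of FVIO-MHT replicate 2 with 1664 UMIs, 26 of Rgs5 and 0 of Myh11.

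**Figure D2:**
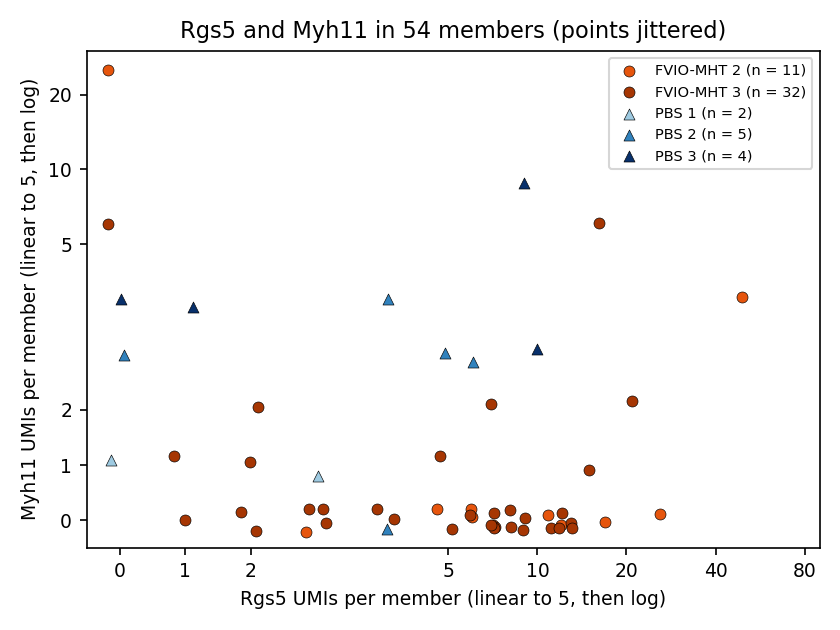
Rgs5 UMIs (x axis) and Myh11 UMIs (y axis) in each of the 54 members, both axes linear to 5 and logarithmic above, with points jittered. Circles are FVIO-MHT and triangles PBS libraries, and the row at 0 on the y axis holds 32 FVIO-MHT members and 1 PBS member.

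The contractile list moved with Myh11. In members with a Myh11 UMI it took 2.63% of UMIs (exact 95% Poisson interval 2.41 to 2.86%), and in members with Rgs5 alone 0.951% (0.819 to 1.10%). Within the FVIO-MHT libraries the same shares were 2.58% and 0.956%. Within FVIO-MHT replicate 3, the median member held 2.64% with Myh11 (9 members) and 0.991% without (23 members). In FVIO-MHT replicate 2 it was 2.78% (2 members) against 0.668% (9 members). The pericyte list leaned the other way, with 0.349% in members with Myh11 and 0.514% in members with Rgs5 alone, and the intervals overlapped (0.273 to 0.440% and 0.418 to 0.625%).

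Lmod1 had 25 UMIs in members with Myh11 and 1 in members with Rgs5 alone, and Cnn1 had 9 and 0. Tpm2 had 82 and 24 UMIs, and Myl9 43 and 13, while the total depth of both sides was alike (20339 and 19462 UMIs). Of the pericyte list, Ebf1 had 9 UMIs in members with Myh11 and 23 in members with Rgs5 alone, while Mcam had 19 and 12. Acta2, a rule gene, had 109 and 48. The smooth muscle genes named here thus had more UMIs in the Myh11 members, while pericyte list genes went both ways.

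**Figure D3:**
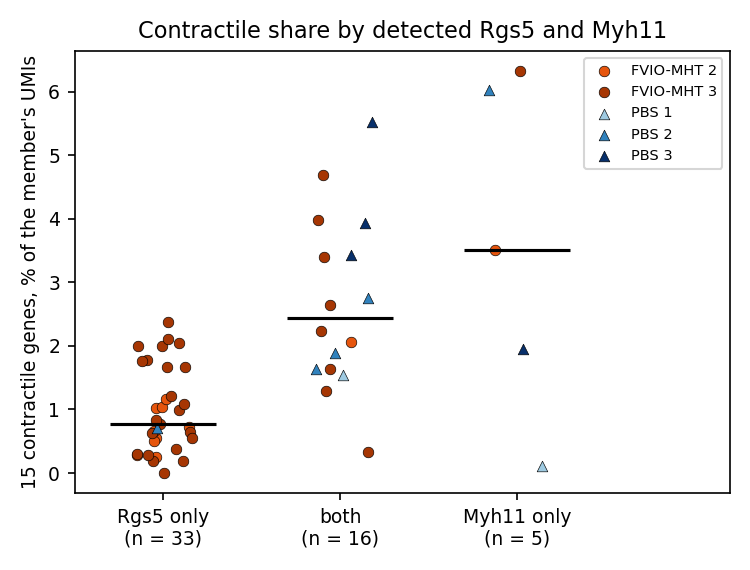
Percent of each member's UMIs that fell on the 15 contractile genes (y axis), for members with Rgs5 alone, both genes, or Myh11 alone. Each point is 1 member coloured by library and each line is the median. Points with Rgs5 alone lie between 0 and 2.37%, and points with Myh11 reach 6.32%.

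Cell cycle genes were found in a minority of members, 23 of 54 holding a UMI of a cell cycle list of 14 genes and 9 holding 3 or more. The list took 0.204% of member UMIs, 0.112% in fibroblast-rule, 0.124% in endothelial-rule and 0.188% in leukocyte-rule barcodes. Of the 81 UMIs in members, 1 member held 20 and another 13, so the members' share rested partly on few barcodes. A UMI of the proliferation gene Mki67 was found in 5 members, of the topoisomerase Top2a in 7, and of both in 2. A single member held 6 of the 11 Mki67 UMIs.

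The first comparison asked whether mural cells made up a different part of the treated tumours. Members were 0 of 332 barcodes in FVIO-MHT replicate 1 (which allows a share of up to 0.904% by a floor of 3 counts, and up to 1.10% by the exact Clopper-Pearson limit), 11 of 1049 (1.05%, exact Clopper-Pearson 95% interval 0.525 to 1.87%) in replicate 2 and 32 of 2325 (1.38%, 0.943 to 1.94%) in replicate 3. They were 2 of 1080 (0.185%, 0.0224 to 0.667%), 5 of 1462 (0.342%, 0.111 to 0.796%) and 4 of 482 (0.830%, 0.227 to 2.11%) in PBS replicates 1, 2 and 3. FVIO-MHT replicates 2 and 3 lay above all PBS libraries and FVIO-MHT replicate 1 lay below all of them, so the groups overlapped.

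The FVIO-MHT libraries had a mean share of 0.808% ± 0.719 (SD, n = 3), and the PBS libraries had 0.452% ± 0.336 (SD, n = 3). The difference of 0.356 percentage points did not exceed the spread between libraries (two-sided exact permutation test, p = 0.500, where 0.100 is the smallest that 3 against 3 allows). Single libraries set its size. It was 0.760 points without FVIO-MHT replicate 1, 0.236 without replicate 2 and 0.0720 without replicate 3, and 0.222 and 0.545 points without PBS replicates 1 and 3. Shares of barcodes also depend on how well each cell type survives dissociation and on the other cells in the library, whose part was not tested.

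**Figure D4:**
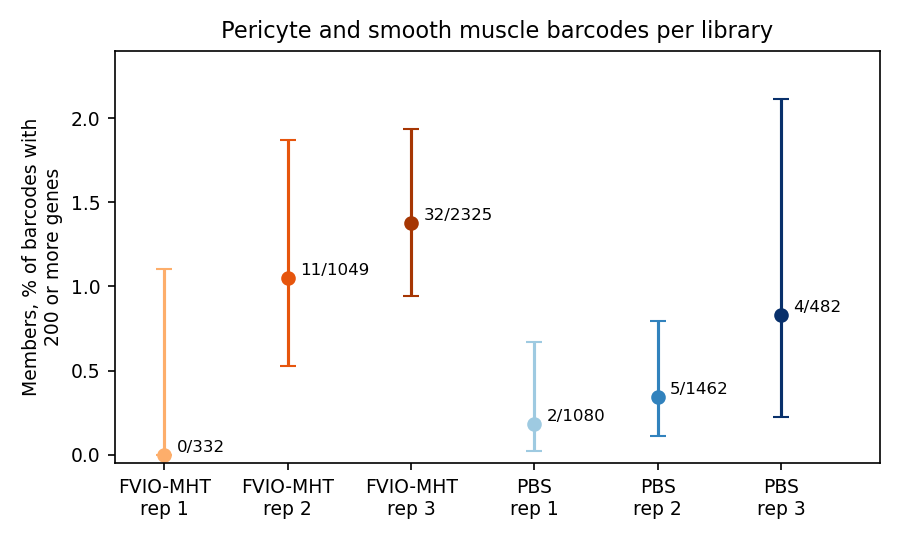
Members as a percent of barcodes with at least 200 genes (y axis) in each of the 6 libraries (x axis), with exact Clopper-Pearson 95% intervals and the counts beside each point. FVIO-MHT replicates 2 and 3 are at 1.05 and 1.38%, PBS libraries between 0.185 and 0.830%, and FVIO-MHT replicate 1 at 0.

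The second comparison described whether the members of treated tumours lay nearer the pericyte or the smooth muscle end. Since Myh11 and Rgs5 both helped to choose the members, these values are a description with no test. A Myh11 UMI was found in 2 of 11 members of FVIO-MHT replicate 2 (18.2%) and 9 of 32 of replicate 3 (28.1%). It was found in 2 of 2, 4 of 5 and 4 of 4 members of PBS replicates 1, 2 and 3. Myh11-positive members were thus the smaller number in both FVIO-MHT libraries and the larger number in all 3 PBS libraries.

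The mean share with a Myh11 UMI was 23.2% over 2 FVIO-MHT libraries and 93.3% over 3 PBS libraries, which hold 11 members in all. The difference was -70.2 percentage points. It was -75.0 points with the members thinned to 500 UMIs, which left 24 members with FVIO-MHT and 7 with PBS, and -87.9 points without the 10 members with many fibroblast UMIs. Taking all libraries with a member was chosen after seeing the data. With at least 5 members a library, which left PBS replicate 2 alone in its group, the difference was -56.8 points. Myh11 and Rgs5 chose the members under each of these settings, so the settings are no check on the part of the rule in the difference. Rgs5 was found in 10 of 11 and 31 of 32 members with FVIO-MHT, and in 1 of 2, 4 of 5 and 3 of 4 members with PBS.

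Whole-library sums show how far the members account for both genes. The members held 29 of 32 and 22 of 33 Myh11 UMIs of FVIO-MHT replicates 2 and 3, and 2 of 2, 13 of 24 and 20 of 29 of PBS replicates 1, 2 and 3. Over all 5000 barcodes of a library, Myh11 made up 14.5% of the 221 UMIs of Rgs5 and Myh11 in FVIO-MHT replicate 2 (exact Clopper-Pearson 95% interval 10.1 to 19.8%) and 7.45% of 443 in replicate 3 (5.18 to 10.3%). It made up 22.2% of 9 (2.81 to 60.0%), 31.6% of 76 (21.4 to 43.3%) and 45.3% of 64 (32.8 to 58.3%) in PBS replicates 1, 2 and 3. FVIO-MHT replicate 1 held 1 Rgs5 and 0 Myh11 UMIs. These sums share most of their Myh11 UMIs with the members and are no independent reading. In barcodes with at least 200 genes that are not members, Myh11 had 0 of 8 and 8 of 78 such UMIs in FVIO-MHT replicates 2 and 3, and 0 of 1, 8 of 27 and 5 of 6 in PBS replicates 1 to 3. The same rule, which uses both genes, left these barcodes over, so they are no independent reading either. Krt14, which myoepithelial and skin cells both make, had 186, 176, 4, 205 and 228 UMIs over all barcodes in the same order, and the part of such cells in the Myh11 counts was not tested.

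**Figure D5:**
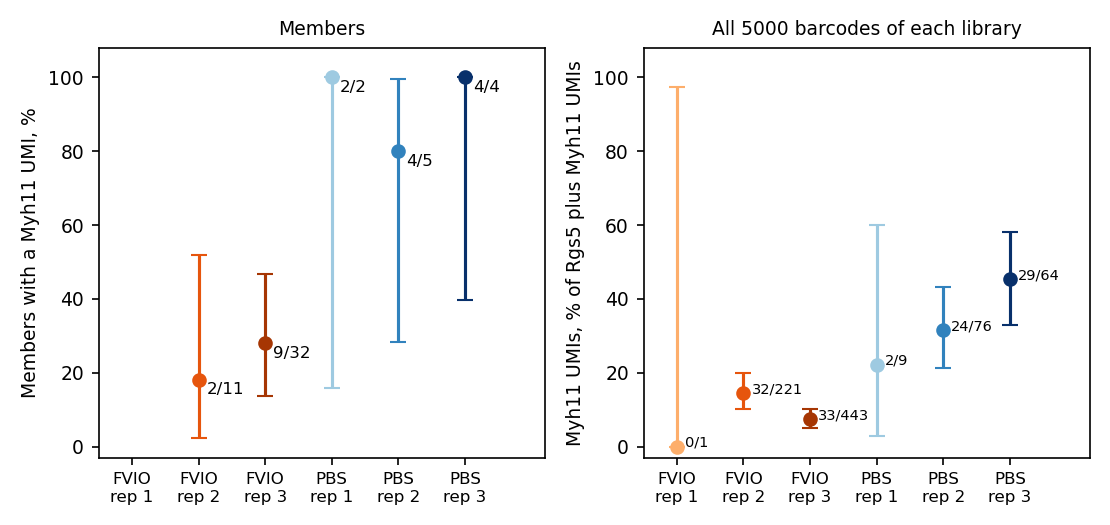
Left, percent of members with a Myh11 UMI in each library that had members, with counts beside the points. Right, Myh11 UMIs as a percent of Rgs5 plus Myh11 UMIs over all 5000 barcodes of each library. Bars are exact Clopper-Pearson 95% intervals for counting error, and in both panels FVIO-MHT replicates 2 and 3 lie below the 3 PBS libraries.

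The third comparison asked which genes differed within the members, from UMIs summed per library (11553 and 20031 in FVIO-MHT replicates 2 and 3, and 1182, 3535 and 3500 in PBS replicates 1, 2 and 3). In all, 39 genes had enough UMIs to be tested. By edgeR's quasi-likelihood test with Benjamini-Hochberg adjustment, 0 of the 39 passed an adjusted p of 0.05 (0%), 0 had an unadjusted p under 0.05, and DESeq2 also called 0. The 10 genes with the lowest p all had an adjusted p of 0.932 in edgeR. PBS members were so few that a single UMI was worth 846 CPM in PBS replicate 1.

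Rgs5 and Myh11 were among the 10 genes with the lowest p, but both are rule genes, so their levels are given without a fold change. Rgs5 had 12291 and 11233 CPM with FVIO-MHT and 2538, 5375 and 5714 with PBS. Myh11 had 2510 and 1098 CPM with FVIO-MHT and 1692, 3678 and 5714 with PBS, and these values overlapped. Of the 39 tested genes, 3 (7.69%) had every FVIO-MHT library above every PBS library, namely the rule gene Rgs5, Jund and Vim, and 0 had the reverse. Rgs5 helped to choose the members, and Jund and Vim passed the count filter only through the FVIO-MHT libraries. The order of these 3 genes was thus partly set by selection and shows no direction.

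Jund, a subunit of the AP-1 transcription factor, had 3635 and 4144 CPM with FVIO-MHT and 1692, 1414 and 1143 with PBS. Its log2 difference was 1.60 (SE 0.99). The other genes with the lowest p were H3f3b, Fos, Vim, Fosb and Col1a2, with log2 differences between 0.93 and 1.40, and the class I histocompatibility genes H2-K1 (-1.39, SE 0.94) and H2-D1 (-1.27, SE 0.90). H2-K1 and H2-D1 are near-identical in places, and how shared reads were counted was not given in the sources used here. H2-K1 had 2683 and 300 CPM with FVIO-MHT and 3384, 1980 and 6571 with PBS, so the groups overlapped.

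By list, 3 of the 15 contractile genes could be tested (Cald1, Tpm2 and Tpm1), 0 passed, and their median log2 difference was -0.56, beside 0.18 over all 39 genes. Of 18 immediate early genes, 5 were tested and 0 passed, with a median of 0.93. They included Jund, which passed the count filter only through the FVIO-MHT libraries, so this median was partly set by selection. It was 0.11 without members with 3 or more leukocyte UMIs. Over all settings, with differing genes tested, it ran from -0.13 (without FVIO-MHT replicate 2) to 1.96 (without a filter), so it shows no direction. Of 14 heat shock genes 1 was tested, Hsp90ab1, which did not pass. Both inflammatory genes tested, Nfkbia and Il6, and both iron and oxidative stress genes tested, Fth1 and Mt1, also did not pass. The pericyte, vessel signalling, interferon, hypoxia and glycolysis, and cell cycle lists had 0 testable genes. With DESeq2's size factors the median over the 39 genes was -0.14, a shift of over 0.1, and the contractile and immediate early medians were then -0.87 and 0.66.

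As sums over each list, the contractile genes took 1.5 and 1.66% of member UMIs with FVIO-MHT and 0.423, 2.57 and 3.37% with PBS. Immediate early genes took 4.21 and 3.07% against 2.20, 4.36 and 0.629%. Heat shock genes took 0.943 and 1.45% against 0.592, 2.89 and 1.69%. All 3 lists overlapped between the groups. The pericyte list took 0.381 and 0.534% with FVIO-MHT against 0.254, 0.226 and 0.257% with PBS, where the sums were 3, 8 and 9 UMIs. Vessel signalling genes took 0.770 and 0.764% against 0.254, 0.679 and 0.60%. The sums of these lists did not overlap. Nor did those of the cell cycle list (0.260 and 0.195% against 0, 0.170 and 0.171%). A single member gave 20 of the 30 cell cycle UMIs in FVIO-MHT replicate 2, and another gave all 6 in PBS replicate 3. Median members overlapped in the cell cycle share, at 0.0502 and 0% with FVIO-MHT and 0, 0.146 and 0% with PBS. Sums of the endothelial list were also apart (0.113 and 0.145% against 0.0846, 0.0566 and 0.0286%). They rested on 1, 2 and 1 UMIs with PBS and were not examined by the median member. Besides these lists and the fibroblast list, the sums of all lists overlapped or tied between the groups. Which lists stood apart was not tested. By the median member the pericyte share overlapped, at 0.173 and 0.532% with FVIO-MHT and 0.440, 0.230 and 0.172% with PBS. Vessel signalling, with PBS sums of 3, 24 and 21 UMIs, was not examined by the median member. Fibroblast list genes took 0.710 and 0.759% against 2.62, 0.934 and 1.00%, so these sums were higher in every PBS library. They rest on few barcodes, since 1 member gave all 31 UMIs in PBS replicate 1 and another gave 34 of 35 in PBS replicate 3. By the median member the share was 0.568 and 0.401% with FVIO-MHT and 1.68, 0.344 and 0.110% with PBS, so the groups overlapped. The part of these barcodes in the gene values was not tested.

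The heat-inducible Hsp70 gene Hspa1b had 1 and 6 UMIs in members of FVIO-MHT replicates 2 and 3, and 0, 12 and 7 in PBS replicates 1, 2 and 3. It was found in 1 of 11 and 4 of 32 members with FVIO-MHT, and in 0 of 2, 4 of 5 and 3 of 4 with PBS. It had too few UMIs to be tested with all 5 libraries. A minimum of 5 members a library sets both FVIO-MHT libraries against PBS replicate 2 alone. In that fit the log2 difference was -3.97 for Hspa1b and -3.47 for Smarca5, given as effect sizes only. PBS then has a single library of 5 members and no spread of its own. Both genes passed the count filter only through PBS replicate 2, where they were high, so the difference itself let them in. Smarca5, a chromatin remodelling ATPase, had 2 and 9 UMIs with FVIO-MHT and 0, 13 and 2 with PBS. Hspa1a, a near-identical neighbour of Hspa1b, had 1 and 12 UMIs with FVIO-MHT and 0, 10 and 0 with PBS.

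Some genes were seen mainly in 1 library. Mgp, a calcification inhibitor of the vessel wall, had 59 of its 61 UMIs in FVIO-MHT replicate 3, where 16 of 32 members carried it. Klf2, a transcription factor gene induced by flow in vessels, had all 29 of its UMIs there, as did the pericyte genes Higd1b (11 UMIs) and Kcnj8 (9 UMIs). Timp3, a matrix protease inhibitor, was not confined to 1 library. It was found in 9 of 11 members of FVIO-MHT replicate 2, 12 of 32 of replicate 3 and 2 of 5 of PBS replicate 2. Its levels there were 3203, 1198 and 2263 CPM. Members were deeper in FVIO-MHT replicate 2 than in replicate 3 (median 696 against 491.5 UMIs), and the part of depth was not tested. The 2 FVIO-MHT libraries thus differed from each other in these genes.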

How the data were processed

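Drop-seq libraries of 6 tumours were analysed. The files the authors deposited hold raw UMI counts for 27998 genes in 5000 barcodes per library, and the submitters' processing notes name STAR 2.7.2b and mm10. How molecules were counted, with which annotation and strand setting, and how barcodes were chosen were not given in the sources used here. In each file 65 rows repeating a symbol were dropped. Positions are from GENCODE M21 (GRCm38, the same assembly as mm10). The members, gene lists and tests were chosen with earlier results of these data known. The comparison barcodes had at least 200 genes and met fibroblast, endothelial or leukocyte marker rules. No doublets were removed. Intervals and floors cover counting error only.

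Member shares were compared over libraries by exact two-sided permutation. The tests set for the Myh11 and Rgs5 shares are not reported, because both genes chose the members. UMIs were summed per library and tested with edgeR 4.0.16 (quasi-likelihood, TMM, filterByExpr, adjusted p under 0.05, R 4.3.3), with DESeq2 1.42.0 as an alternative. The planned minimum of 10 members a library left no PBS library, so, as the design provided, all 5 libraries with a member entered. On simulated data with known changes, the fit recovered 0 of 4 tested genes at a log2 difference of 2, and 7 of 8 at 4. A fit that calls 0 genes can therefore miss differences of that smaller size. Genes named are the 7 rule genes, contractile and pericyte list genes, the 20 genes with the highest ratio, the 10 lowest p, and the leading tested genes of other lists with set stress and inflammatory genes. Other genes, such as Flt1, Esam, Mgp, Klf2, Smarca5, the endothelin and nitric oxide receptor genes and collagens, were named after their values were seen. Total depth was 678337 to 2207534 UMIs a library.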

Additional observations from a re-analysis of the deposited data

Results flagged for a closer look

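Barcodes with fewer than 200 genes are outside all comparisons, and some of them met the rest of the mural rule. In FVIO-MHT replicate 2 they were 3 of 3951 such barcodes (0.0759%, exact Clopper-Pearson 95% interval 0.0157 to 0.222%). In FVIO-MHT replicate 3 they were 15 of 2675 (0.561%, 0.314 to 0.923%). Both lay above the highest PBS value, 1 of 3538 barcodes (0.0283%, 0.000716 to 0.157%) in PBS replicate 2, although the interval of FVIO-MHT replicate 2 overlaps it. In FVIO-MHT replicate 1 and PBS replicate 3 the count was 0.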

How the results depend on the processing

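The difference in member share stayed positive under every alternative run, from 0.213 to 0.854 points, and between 0.0720 and 0.760 points when 1 library was left out. For the Myh11 share the values with 1 library left out were -61.8 to -51.9 points, and for the Rgs5 share 10.9 to 16.9 points, each 1 library against 1 with no test. Both are rule genes, so these values are description only. Genes past the threshold numbered 0 in all fits run with at least 2 libraries in each group. A minimum of 5 members, or leaving out either FVIO-MHT library, leaves 1 library in a group, so no count is given there. With a replicate block, which can use 4 libraries, 0 of 105 genes passed, and 0 of 105 without the block. The labels do not say that a number marks a shared animal or day. With 2 FVIO-MHT libraries the deviations mirror each other, so the data cannot show whether the numbers pair. Among 172 fold changes of the 10 named genes, 4 turned sign. With a minimum of 5 members Fos was at -0.090 and Fosb at -0.36, without a filter Myh11 was at 0.038 beside a median of 1.82 over the 6928 genes tested, and Fosb ranged from -0.26 (without FVIO-MHT replicate 2) to 3.32 with 1 library left out. The cause was not tested. Without a filter 0 genes passed. No member had 5 or more haemoglobin UMIs, so leaving such members out tests nothing. A minimum of 20 members was not run because no PBS library reaches it. For the Myh11 and Rgs5 shares, thinning, a marker sum of at least 6, leaving out fibroblast-rich members and leaving out PBS replicate 2 were not run as first set, since no PBS library then has 5 members. Leaving out the member with myoepithelial UMIs and the fibroblast-rich members was chosen after seeing the data. The 11 PBS members limit every comparison.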
